A study of Mus with 6 samples.

Results

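The genes of antigen presentation examined in leukaemic stem and progenitor cells were H2-K1, H2-D1, B2m, Tap1, Tap2, H2-Aa, H2-Ab1, H2-Eb1, Cd74 and Ctss. They were taken as every probe whose gene symbol in the platform annotation was in that list, which gave 21 probes for the 10 genes, of 45281 probes and 19057 named genes on the array. H2-D1 had 4 probes, H2-K1, B2m, H2-Ab1 and Cd74 had 3 each, and the other 5 genes had 1 each. RNA came from bone marrow of mice in which BCR-ABL p210, the fusion kinase of chronic myeloid leukaemia (CML), had caused that disease, taken 14 days after bone marrow transplantation. The sort kept GFP+ cells that carried BCR-ABL, lacked lineage markers and had Sca-1 and c-Kit on their surface, the LSK phenotype of blood stem and early progenitor cells. There were 3 arrays of Klf4-deficient leukaemic cells and 3 of wild-type (WT) leukaemic cells. Both groups carried BCR-ABL p210 and the strain label C57BL/6. The sources used here do not give how Klf4, a zinc finger transcription factor, was inactivated, in which cells, or whether each sample is a mouse of its own. The p-values therefore cover the spread among these arrays, and that spread may be technical.

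Class I molecules of the major histocompatibility complex (MHC) show peptides made in the cell's own cytosol to CD8+ T cells and are present on most nucleated cells. Class II molecules show peptides from endosomes to CD4+ T cells, and are typical of dendritic cells, B cells and macrophages, with low amounts known on some blood progenitors. C57BL/6 mice carry a defective promoter of H2-Ea, so that their class II molecules are made of the H2-Aa and H2-Ab1 chains. In the RefSeq order of genes (assembly GRCm38.p6), H2-Ab1, H2-Aa and H2-Eb1 are direct neighbours, and Psmb9, Tap1, Psmb8 and Tap2 follow each other a short way off in the same cluster.

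The deposited values are background-subtracted intensities on a linear scale, and a value of 32 was used as the floor above which a probe was taken as measured. On each array 7082 to 7214 probes, 15.6% to 15.9%, lay above it. WT replicate 3 stood apart. Across the 18270 probes that exceeded 32 on at least 1 array, its log2 values correlated with those of the other arrays at Pearson r = 0.287 to 0.299, against 0.662 to 0.725 among the other 5. These are correlations across probes, which are not independent replicates. WT replicate 3 alone was above the floor for 18.2% of these probes, against 5.22% to 6.45% for any other array. Values without it are given beside many of those that it moves, but not all, so a value given alone may also depend on it. The 3 probes of Klf4 lay at or below 32 on all Klf4-deficient arrays and on all WT arrays but 1 value of 51.9, so they give no check of the labels. Of the genes of the sort gate, Kit was above the floor on Klf4-deficient replicates 1 and 3 and on WT replicate 3 with its brightest probe.

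Klf4-deficient and WT arrays were compared to ask whether MHC and antigen presentation transcripts differ when Klf4 is missing. Among the class II chains and Cd74, H2-Ab1 differed most and was 10.4-fold lower in Klf4-deficient cells on its brightest probe. That difference was -3.38 (log2), and -2.55 without WT replicate 3. On its other probes H2-Ab1 was 5.81-fold and 2.14-fold lower. The 8 probes of class II chains and Cd74 all read lower, but 4 of the 8 were above the floor in WT arrays alone and could not read otherwise. Over all probes tested, 54.2% read lower. Without WT replicate 2 it was 5 of the 6 probes still measured. Class I chains read higher on 7 of 9 tested probes, and on 5 of 9 when WT replicate 3 or Klf4-deficient replicate 1 was left out. No probe passed the test. Of the 21 probes, 20 exceeded 32 on at least 1 array and were tested, and 0 of these 20 had a limma adjusted p under 0.05, with 0 of 18270 (0%) over all probes tested. Their adjusted p-values lay between 0.715 and 0.986, and the lowest over all probes was 0.319. Of the 20, 1 probe, of H2-Ab1, had a limma unadjusted p under 0.05 and read lower. Over all probes tested, 2.03% had such a p, 0.575% lower and 1.46% higher in Klf4-deficient cells.

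**Figure D1:**
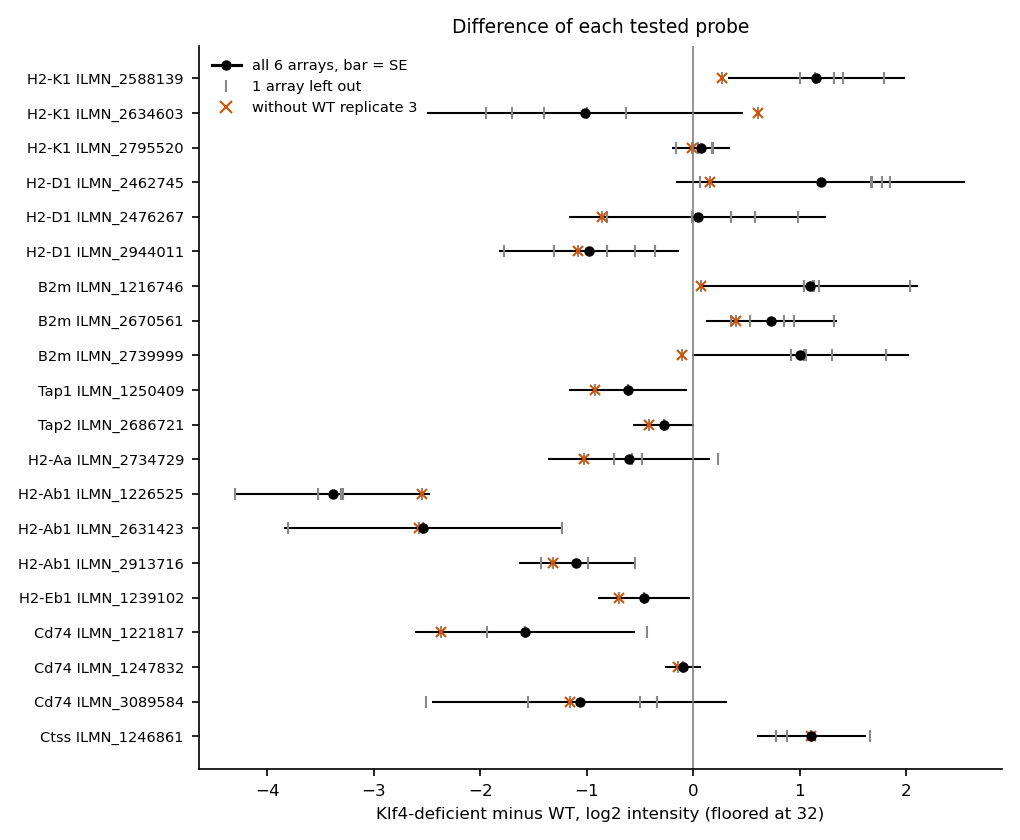
Difference of each of the 20 tested probes between Klf4-deficient and WT arrays (x axis, log2 intensity floored at 32, Klf4-deficient minus WT; n = 3 arrays per group). Black points with SE bars use all 6 arrays, grey ticks leave out 1 array each, and orange crosses leave out WT replicate 3. The 3 probes of H2-Ab1 sit at -3.38, -2.54 and -1.10, and the 8 probes of class II chains and Cd74 lie left of 0 with all arrays, 4 of them measured in WT arrays alone.

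H2-Ab1 encodes the beta chain of the class II molecule. On its brightest probe, ILMN_1226525, the intensity was -4.3, 43.2 and 1.5 in Klf4-deficient replicates 1 to 3, against 103, 417 and 1167.1 in WT replicates 1 to 3. All WT arrays were above the floor and above every Klf4-deficient array, of which only replicate 2 was above the floor, so the fold change understates the difference. The log2 difference was -3.38 ± 0.91 (SE from 3 arrays in each group, limma adjusted p = 0.715), with a 95% interval of -5.69 to -1.08. It was -2.55 without WT replicate 3, the highest array, and -4.30 without WT replicate 1.

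The other probes of H2-Ab1 read lower too. Probe ILMN_2631423 gave 11.7, 14.2 and 10.9 in Klf4-deficient cells, against 10.8, 1132.3 and 177.1 in WT cells. WT replicate 1 was at the floor like all Klf4-deficient arrays, so with 2 of 3 WT arrays measured no bound is given. On floored values the probe was 5.81-fold lower (-2.54 ± 1.31 log2, SE, limma adjusted p = 0.715). It was -1.23 without WT replicate 2 and -3.81 without WT replicate 1. Probe ILMN_2913716 gave 8.9, 50.1 and 25.5 in Klf4-deficient cells, against 50.3, 169.5 and 58.9 in WT cells. The groups did not overlap there, but by 0.2 intensity units between Klf4-deficient replicate 2 and WT replicate 1, and the difference was -1.10 ± 0.54 (log2, SE, limma adjusted p = 0.715). It was -0.55 without WT replicate 2. The probes did not rank the WT arrays alike, since WT replicate 3 was highest on the first and WT replicate 2 on the others. Probes ILMN_1226525 and ILMN_2913716 were the 2 of 20 member probes on which all Klf4-deficient arrays lay below all WT arrays, against 0.958% of all probes tested, and they share a gene. On 0 of 20 did they lie above, against 2.13%.

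Cd74 encodes the invariant chain, which blocks the peptide groove of class II molecules and guides them to endosomes. Probe ILMN_3089584 gave 0.4, 648.7 and -4.6 in Klf4-deficient cells, against 93.6, 402.3 and 161.9 in WT cells. Klf4-deficient replicate 2 was the highest of the 6 while the other Klf4-deficient arrays were at the floor, so the groups overlapped. The difference of -1.07 ± 1.38 (log2, SE, limma adjusted p = 0.728) reached -2.51 when Klf4-deficient replicate 2 was left out. Without WT replicate 2 it was -0.50, and -0.34 without Klf4-deficient replicate 1. Probe ILMN_1221817 gave -2, 12.7 and -8.3 in Klf4-deficient cells, against 58.7, 467 and 7.5 in WT cells. On floored values it was 2.99-fold lower, with 2 of 3 WT arrays measured (limma adjusted p = 0.715). Klf4-deficient replicate 2 was thus at the floor on this probe and highest on the first. The remaining probe, ILMN_1247832, exceeded 32 only in WT replicate 2, at 39.3. Leaving out WT replicate 2 took ILMN_1221817 to -0.44, and leaving out WT replicate 3 took it to -2.37.

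H2-Aa, the alpha chain that pairs with the product of H2-Ab1, gave 46, 36.3 and 10.4 in Klf4-deficient cells, against 15.7, 182.9 and 10.1 in WT cells. Only WT replicate 2 was above the floor among the WT arrays, while 2 of 3 Klf4-deficient arrays were. The difference of -0.60 ± 0.76 (log2, SE, limma adjusted p = 0.723) turned to 0.24 without WT replicate 2 and was -1.02 without WT replicate 1 or WT replicate 3. H2-Aa was thus highest in WT replicate 2, as were 2 of the 3 H2-Ab1 probes, and not in WT replicate 3, where the brightest H2-Ab1 probe was highest. H2-Eb1, a second class II beta chain, gave 10.3, 10.4 and 18.4 in Klf4-deficient cells, against 16.8, 84.2 and 30.7 in WT cells. It was above the floor in WT replicate 2 alone, and on floored values it was 1.38-fold lower (limma adjusted p = 0.715).

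**Figure D2:**
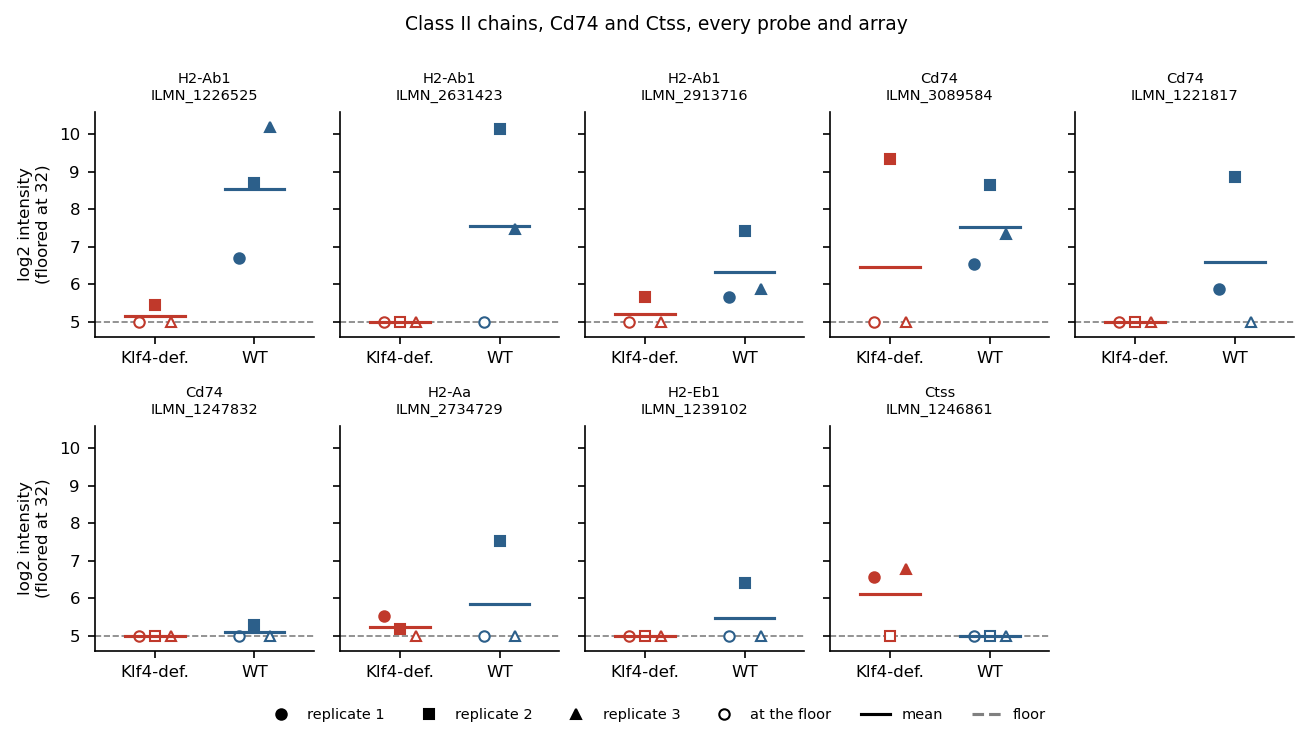
Log2 intensity (y axis, floored at 32, dashed line) of the probes of H2-Ab1, Cd74, H2-Aa, H2-Eb1 and Ctss in Klf4-deficient (left, red) and WT (right, blue) arrays, 3 per group. Symbols give the replicate number, open symbols lie at the floor and lines are means. WT replicate 2 (blue square) is above the floor on all 8 probes of class II chains and Cd74, and Ctss is above it in Klf4-deficient replicates 1 and 3 alone.

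Ctss encodes cathepsin S, the protease that trims the invariant chain, and it was the 1 gene of the class II side that read higher in Klf4-deficient cells. It gave 94.1, 30.5 and 108.9 in Klf4-deficient cells, against 9.4, 25.6 and 25.6 in WT cells. No WT array was above the floor and 2 of 3 Klf4-deficient arrays were. On floored values it was 2.16-fold higher (1.11 ± 0.51 log2, SE, limma adjusted p = 0.715). On deposited values every Klf4-deficient array was above every WT array, but Klf4-deficient replicate 2 was itself at the floor, so the floored groups overlapped. The difference was 1.66 without Klf4-deficient replicate 2, 0.88 without replicate 1 and 0.78 without replicate 3 of that group, and 0.44 with a floor of 64.

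Class II and Cd74 signal differed between arrays of the same group. WT replicate 2 was above the floor on 8 of these 8 probes, WT replicates 1 and 3 on 4 each, and Klf4-deficient replicates 1, 2 and 3 on 1, 4 and 0. Over all 21 probes the counts were 11, 12 and 9 in Klf4-deficient cells, against 12, 19 and 8 in WT cells. WT replicate 2 held the highest value for 10 of the 20 tested probes, while it held the highest value for 15.7% of all probes tested. It was the only array above the floor for 4 of them (H2-Eb1, Tap1, Tap2 and 1 probe of Cd74), against 6.45% of all probes tested. The number of class II and Cd74 probes that read lower was 8 of 8 when any array but WT replicate 2 was left out, and 5 of the 6 still measured without WT replicate 2. Their median difference was -1.08 with all arrays, -1.23 without WT replicate 3 and -0.52 without WT replicate 2, beside -0.055, 0.055 and 0.016 over all probes tested. A probe that entered the test through WT arrays alone had to read lower, and 6 of the 20 had all Klf4-deficient arrays at the floor, against 33.5% of all probes tested. Of the 20, 1 had all WT arrays at the floor, against 20.7%.

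**Figure D3:**
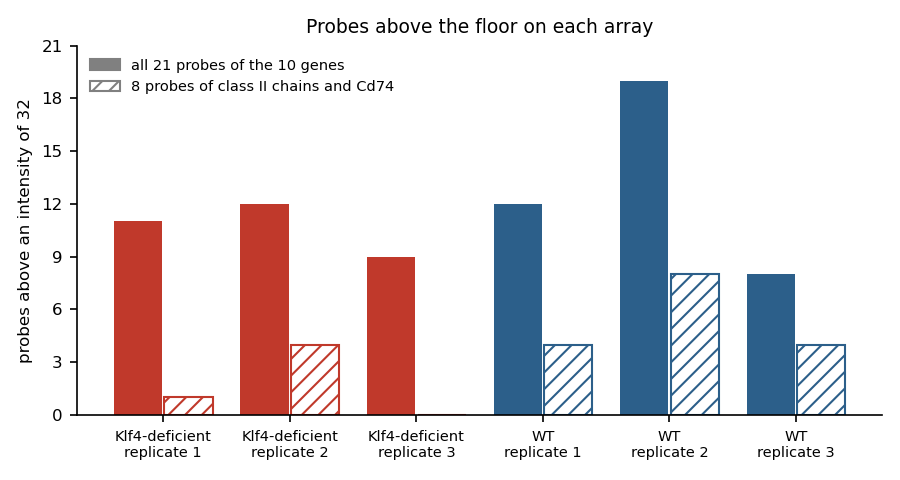
Number of probes above an intensity of 32 (y axis) on each array, Klf4-deficient in red and WT in blue. Filled bars count all 21 probes of the 10 genes and hatched bars the 8 probes of class II chains and Cd74, which number 8 in WT replicate 2 and 0 in Klf4-deficient replicate 3.

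Markers of cells that carry class II were read on the same arrays, with the brightest probe of each gene. Of 11 dendritic cell markers, 5 (Itgax, Xcr1, Clec9a, Ccr7 and Bst2) were at the floor on every array, and their summed intensity was 1935 to 2984.3 in Klf4-deficient arrays and 1570.8 to 4513.8 in WT arrays. Most of that sum was Siglech, a lectin of plasmacytoid dendritic cells, at 1167.1, 2452.3 and 2870.3 in Klf4-deficient cells, against 4102.6, 1515.8 and 1331.9 in WT cells. Of 8 B cell markers with a probe, Cd79b, Ms4a1, Pax5 and Igll1 were at the floor on every array. The sum of the 8 was 100.3 to 237.1 in Klf4-deficient arrays and 80.7 to 119.1 in WT arrays. Of 7 monocyte and macrophage markers, Ccr2, Fcgr1 and Cx3cr1 were at the floor throughout, and the sum was 42.5 to 95 in Klf4-deficient arrays and 62.1 to 604.5 in WT arrays, highest in WT replicate 3, where Csf1r read 274.3. The 4 monocyte and macrophage markers tested all read lower in Klf4-deficient arrays (median -0.70), 2 of them measured in WT arrays alone, and without WT replicate 3 it was 2 of 3 (median -0.37). Of 6 dendritic cell markers tested, 5 read lower (median -0.08), 3 of them measured in WT arrays alone, and without WT replicate 3 it was 3 of 3 (median -0.31). The 4 B cell markers tested all read higher (median 0.15), with Vpreb1 and Cd22 measured in Klf4-deficient arrays alone. Without WT replicate 3, 3 of the 4 B cell markers read higher (median 0.18). In WT replicate 2, the array with most class II signal, the dendritic, B cell and monocyte sums were 2518.4, 119.1 and 62.1, all inside the range of the other arrays. Its Flt3 value, of a receptor shared by dendritic cells and early progenitors, was the highest of the 6 at 864.1. The part of these cells in the class II values was not tested, and in bulk RNA fewer cells of a type and less RNA per cell cannot be told apart. The 8 stem and progenitor markers summed to 620.2 to 1047.6 in Klf4-deficient arrays and 415.5 to 1487.8 in WT arrays. The 8 T and NK cell markers summed to 309.6 to 428.8 in Klf4-deficient arrays and 113.9 to 340.6 in WT arrays. WT replicate 3 held the lowest stem sum and the highest WT sum of T and NK cell markers. In WT replicates 1 and 2 the T and NK cell sums were 113.9 and 129.1, below every Klf4-deficient array. Klrb1c was at the floor on every array. Of 7 T and NK cell markers tested, 3 read lower and 4 higher (median 0.23). The 3 that read lower, Cd3e, Cd3d and Cd4, were at the floor on all Klf4-deficient arrays and above it in WT replicate 3 alone. Cd8a gave 56.6, 107.3 and 141.8 in Klf4-deficient cells, against 72.1, 55.5 and -5.7 in WT cells, and overlapped. Without WT replicate 3 the 4 still measured read higher (median 0.60), with Cd3g, Thy1 and Nkg7 measured in Klf4-deficient arrays alone. Thy1, a surface glycoprotein, did not overlap between the groups, with 113, 187.2 and 146 in Klf4-deficient cells, against 24.4, 26 and -7 in WT cells (limma adjusted p = 0.595). It is named after its values were seen. Over all probes tested, 2.13% had every Klf4-deficient array above every WT array.

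The heavy chain of class I is encoded by H2-K1 and H2-D1 in these mice, and B2m encodes the light chain, beta-2-microglobulin, without which class I does not reach the surface. B2m was measured on all 6 arrays by the pair of brighter probes. Probe ILMN_1216746 gave 857.8, 980.4 and 868.6 in Klf4-deficient cells, against 475, 1552.1 and 101.3 in WT cells. On the log2 scale that is 9.81 ± 0.11 in Klf4-deficient arrays and 8.72 ± 1.97 in WT arrays (SD, n = 3 each), so the Klf4-deficient values lay close together inside the range of the WT values. The difference of 1.10 ± 1.01 (SE, limma adjusted p = 0.715, 95% interval -1.47 to 3.66) was 0.07 without WT replicate 3 and 2.04 without WT replicate 2. Probe ILMN_2739999 also had the Klf4-deficient values inside the WT range, with 759.7, 896.7 and 738.3 in Klf4-deficient cells, against 603.7, 1214.8 and 85.2 in WT cells. Its difference of 1.00 ± 1.02 (log2, SE, limma adjusted p = 0.715) turned to -0.11 without WT replicate 3. The dimmer ILMN_2670561 gave 37.3, 142.3 and 111.4 in Klf4-deficient cells, against 67.8, 59.3 and 0.5 in WT cells, and overlapped as well (0.73 ± 0.61 log2, SE, limma adjusted p = 0.715; 0.41 without WT replicate 3).

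H2-K1 probes disagreed. On ILMN_2588139 the values were 193.9, 247.7 and 301.6 in Klf4-deficient cells, against 155.1, 265 and 11.7 in WT cells. The difference of 1.15 ± 0.83 (log2, SE, limma adjusted p = 0.715) was 0.27 without WT replicate 3, the 1 array at the floor. On ILMN_2634603 that same array was by far the highest, with 34.1, 99.8 and 57 in Klf4-deficient cells, against 31.2, 45.1 and 1104.8 in WT cells. This difference of -1.01 ± 1.48 (log2, SE, limma adjusted p = 0.751) turned to 0.61 without WT replicate 3. ILMN_2795520 stayed near the floor at 52.3, 10 and 8.8 in Klf4-deficient cells, against 41.6, 34.8 and -12.2 in WT cells, a difference of 0.07 ± 0.27 (limma adjusted p = 0.905).

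H2-D1 varied more within groups than between them. On ILMN_2462745 it gave 1492.7, 159.8 and 125.9 in Klf4-deficient cells, against 299.8, 259.7 and -3.7 in WT cells, and the difference of 1.20 ± 1.36 (log2, SE, limma adjusted p = 0.715) was 0.07 when Klf4-deficient replicate 1 was left out and 0.16 without WT replicate 3. On ILMN_2476267 it gave 370.4, 54.2 and 73.4 in Klf4-deficient cells, against 409.8, 103.2 and -9.5 in WT cells. Replicate 1 of each group was high there, and the difference was 0.04 ± 1.21 (log2, SE, limma adjusted p = 0.986), with a 95% interval of -3.02 to 3.10. It turned to -0.85 without WT replicate 3. On ILMN_2944011 it gave 240.5, 33.7 and 62.6 in Klf4-deficient cells, against 285.8, 99.5 and 137.1 in WT cells, with the opposite sign to the first probe (-0.98 ± 0.84 log2, SE, limma adjusted p = 0.715). Leaving out Klf4-deficient replicate 1 gave -1.78, and leaving out replicate 2 gave -0.36. The fourth probe, ILMN_2608090, stayed below 32 on all 6 arrays and was not tested. The class I heavy chain genes are close paralogs, so that signal of a probe may come from more than its own gene, and the probe sequences were not used here.

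Tap1 and Tap2 encode the partner subunits of the transporter that carries peptides into the endoplasmic reticulum for class I loading. Tap1 gave 5.7, 3.3 and 3.8 in Klf4-deficient cells, against 19.6, 114.6 and 4.6 in WT cells. Tap2 gave -12.8, -11 and -18.7 in Klf4-deficient cells, against -14.7, 57.1 and -22.7 in WT cells. Both were above the floor in WT replicate 2 alone. On floored values they were 1.53-fold and 1.21-fold lower (limma adjusted p = 0.715 each), which is no bound with WT replicates 1 and 3 at the floor too. Without WT replicate 2 neither was measured on any array, so a difference in the transporter was not detectable at this signal.

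**Figure D4:**
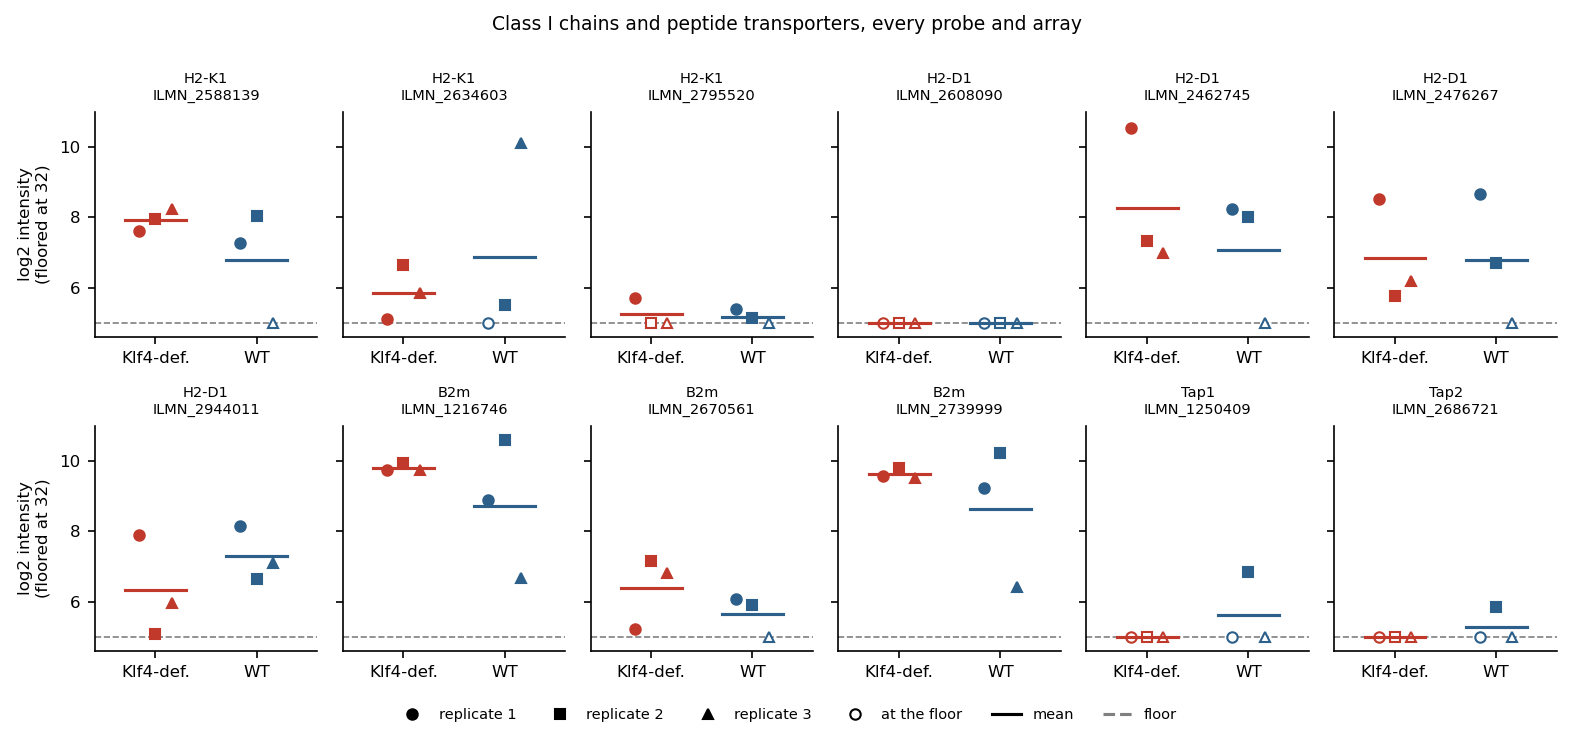
Log2 intensity (y axis, floored at 32, dashed line) of every probe of H2-K1, H2-D1, B2m, Tap1 and Tap2 in Klf4-deficient (left, red) and WT (right, blue) arrays, 3 per group. Symbols give the replicate number, open symbols lie at the floor and lines are means. WT replicate 3 (blue triangle) is lowest on the 3 probes of B2m and highest on ILMN_2634603 of H2-K1.

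Other genes of the pathway were read through the brightest probe of each gene. Over all 10236 named genes tested the median difference was -0.10 (log2), with 5788 lower and 4448 higher, and 0 genes of the lists were called. Of 11 class II chain genes with Cd74, 6 were tested, and H2-Eb1 and H2-Oa of these were above the floor in a single WT array, so they could only read lower. The other 4, H2-Ab1, H2-Aa, Cd74 and H2-DMa, read lower as well. H2-DMa, part of the editor that exchanges class II peptides, gave 7.7, 12.6 and 39.3 in Klf4-deficient cells, against 41, 136.7 and 10.3 in WT cells (-0.72 ± 0.59, limma adjusted p = 0.715; -1.13 without WT replicate 3). Its difference rests mainly on WT replicate 2, at 136.7. The only other values above the floor, 41 in WT replicate 1 and 39.3 in Klf4-deficient replicate 3, lay close together. A fit without WT replicate 2 is not given for it. H2-Oa, part of the inhibitor of that editor, was above the floor in WT replicate 3 alone, at 173. H2-Ea and Ciita, the master activator of class II genes, had probes that never exceeded 32, and are named here after their values were seen. Of 9 class II processing genes, 6 were tested, 3 lower and 3 higher (median 0.04), and 4 lower and 2 higher without WT replicate 3 (median -0.21). Of these, Ifi30, a lysosomal thiol reductase, exceeded the floor in Klf4-deficient replicate 1 alone (45.9), and Ctsd, cathepsin D, in WT replicate 1 alone (41.9).

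On the class I side, 11 of 20 heavy chain and class I-like genes were tested, with 5 lower and 6 higher (median 0.05). Of these, H2-Bl was above the floor in WT replicate 3 alone and could only read lower. H2-T23, which encodes the Qa-1 molecule, was above the floor on all 6 arrays at 297.2, 208 and 315.7 in Klf4-deficient cells, against 490.2, 288.3 and 369.1 in WT cells. The groups overlapped (-0.47 ± 0.29 log2, SE, limma adjusted p = 0.715). H2-T10 gave 249.9, 731.1 and 485.7 in Klf4-deficient cells, against 935.9, 119.8 and 24.2 in WT cells (1.54 ± 1.31, limma adjusted p = 0.715), and the difference was 0.41 without WT replicate 3. All 9 transport and loading genes were tested, 6 lower and 3 higher (median -0.28), and 8 lower and 1 higher without WT replicate 3 (median -0.40). In both counts 4 of the lower genes, Tap1, Tap2, Tapbpl and Erap1, were above the floor in WT arrays alone and could only read lower. Without WT replicate 3, 45.1% of all probes tested read lower. The chaperone gene Canx was at -1.14 ± 0.97 (limma adjusted p = 0.715) through WT replicate 3, where it read 360.6, and at -0.06 without that array. Tapbpl, a tapasin-like peptide editor, was 1.92-fold lower on floored values through WT replicate 1 alone (limma adjusted p = 0.715). Of 5 genes of the immunoproteasome and its activator, 2 read lower and 3 higher (median 0.45), and 3 lower and 2 higher without WT replicate 3 (median -0.40). The 2 that read lower with all arrays, Psmb8 and Psme2, were above the floor in WT arrays alone and could not read otherwise. Psmb8, a catalytic subunit whose gene lies between Tap1 and Tap2, gave 22.4, 2 and 1.4 in Klf4-deficient cells, against 114.1, 92.4 and 4.5 in WT cells. On floored values that is 2.18-fold lower, with 2 of 3 WT arrays measured (limma adjusted p = 0.715). Psmb10, another catalytic subunit, gave 184.4, 1331.9 and 592 in Klf4-deficient cells, against 725.1, 278.8 and -9.9 in WT cells, and overlapped (limma adjusted p = 0.715), with a difference of 0.23 without WT replicate 3.

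Of 18 regulators of MHC transcription, 10 were tested, 5 lower and 5 higher (median 0.01; 0.46 without WT replicate 3). Nfya, a subunit of the NF-Y factor that binds the CCAAT element of MHC promoters, gave 124.3, 82.9 and 94.6 in Klf4-deficient cells, against 6.3, -0.4 and 23.8 in WT cells. Every Klf4-deficient array was above every WT array, as on 2.13% of all probes tested. With the WT arrays at the floor Nfya was at least 3.10-fold higher (1.63 ± 0.21 log2, SE, limma adjusted p = 0.667). Ifngr2, a chain of the interferon gamma receptor, gave 9624, 8618.6 and 10027.8 in Klf4-deficient cells, against 9031.5, 5090 and 3492.9 in WT cells. Its groups overlapped through WT replicate 1 (0.79 ± 0.38, limma adjusted p = 0.715; 0.47 without WT replicate 3).

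**Figure D5:**
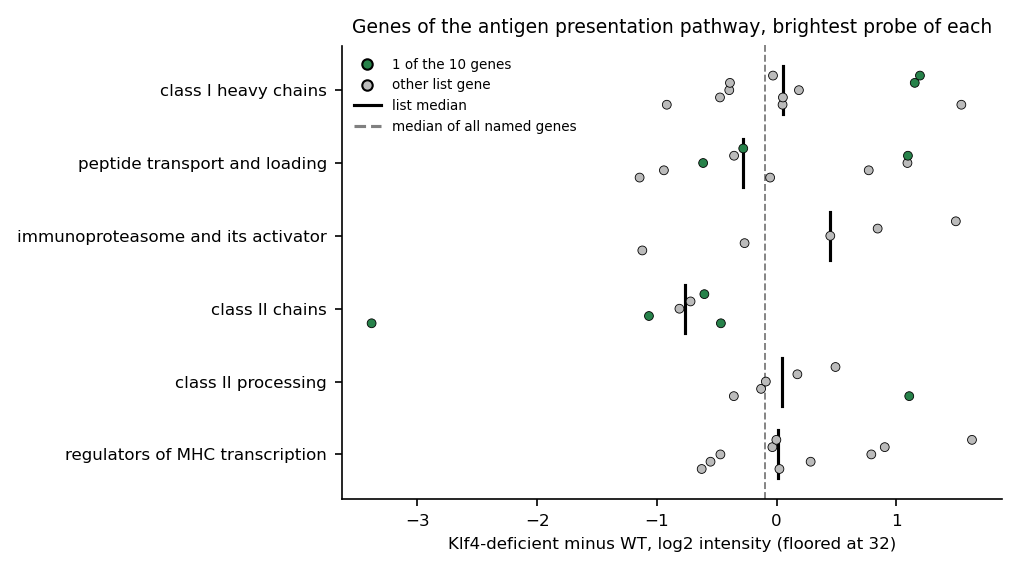
Differences of the tested pathway genes (x axis, log2 intensity floored at 32, Klf4-deficient minus WT), 1 point per gene for its brightest probe, by list. Green points are among the 10 genes, black lines are list medians and the dashed line is the median of all named genes tested, -0.10. The 6 class II chain genes tested lie left of 0, among them 2 measured in a single WT array alone, and the other lists fall on both sides.

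The genes most like each class II gene over the 6 arrays were found as the probes with the smallest mean absolute difference of log2 values, each centred on its own mean, among 14732 other named probes. For the brightest H2-Ab1 probe these were Polr3g (0.36), B4galnt1 (0.46) and Kdm2b (0.48), each with WT replicate 3 highest and WT replicate 2 next. These matches thus rest in part on WT replicate 3 and were not sought without it. The further H2-Ab1 probes ranked 252 and 454. For Cd74 they were Btg1 (0.39), Ctu2 (0.59) and Lamtor4 (0.66), all highest in Klf4-deficient replicate 2, and the nearest other member was an H2-Ab1 probe at rank 63. For H2-Aa they were Tnfrsf21 (0.06), A530032D15Rik (0.06) and Rab18 (0.10), with Tap1 the nearest member at rank 218. For H2-Eb1 they were Arrb1, Slc35c2 and Gtdc1 (0.003 or less), which, like H2-Eb1, were above the floor in WT replicate 2 alone, so that such a match rests on a single value. Tap1 ranked 301 and Tap2 ranked 402 there. By this measure members of the class II set were not each other's closest matches, but neither were probes of the same gene. The other Cd74 probes ranked 3475 and 4071 against the brightest Cd74 probe. These ranks therefore do not show whether class II genes vary together.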

How the data were processed

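The deposited intensities, 1 per probe and array, came from Illumina one-colour bead arrays that a service laboratory prepared and scanned, per the labels' protocols, with BeadStudio, per the submitters' processing notes. For its version, background step and normalization, nothing was stated in those sources. Values ran from -31 to 37007.2, with 45.3% to 45.6% of each array at or below 0 and medians of 1.6 to 1.7, so a background had been subtracted and a common scale set before deposit. The number of arrays limits the precision.

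A floor of 32 was applied and values were put on the log2 scale. Probes above 32 on at least 1 array (18270) were compared with limma 3.58.1 (lmFit, eBayes) in R 4.3.3 with the package data.table at version 1.17.8, Benjamini-Hochberg adjustment over all of them, a threshold of 0.05 and no replicate block. A bound ("at least") is given only where all arrays of 1 group were above the floor and all of the other at it. Other folds are between means of floored values. The fit was tested on simulated data with changes added to bright probes alone. That test does not show how well changes of probes near the floor are found. Groups came from sample titles. Symbols came from the platform annotation, updated through Entrez numbers in RefSeq. Of the probes, 34885 had 1 symbol, 18 several and 10378 were not listed there.

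The members and the 11 lists (6 of the pathway, 5 of cell markers, 122 entries) were chosen with earlier results of these data known. Named were all members, up to 2 further genes per pathway list with the smallest p, and the 3 genes nearest each class II gene. The alternatives were other floors, an offset, filters, quantile normalization, eBayes with trend, array weights, a replicate block, a feature per gene and leaving out each array.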

Additional observations from a re-analysis of the deposited data

How the results depend on the processing

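No member probe was called under any of the 17 alternatives. Of these, quantile normalization was a weak check, since the deposited arrays already shared a scale. It left H2-Ab1 ILMN_1226525 at -3.38. The lowest adjusted p of a member was 0.342. Over all features 1 was called without the filter on dim probes and 1 with probes averaged per gene, neither of them of the 10 genes. With limma, member probes at an unadjusted p under 0.05 numbered 1 of 20, beside 2.03% of all probes tested. They numbered 2 with a floor of 16, 3 with an offset of 16 and 2 with trend and robust eBayes. With array weights they numbered 2, with the replicate block 2, and 1 to 3 when 1 array was left out. Without WT replicate 3 it was 1 of 20, beside 532 of 14950 probes tested. For the other settings the share over all probes was not taken, so these counts cannot be set against it. Member probes with a lower mean numbered 12 of 20, and 6 with the filter of 3 arrays above 32, which leaves fewer probes. The median over members was -0.37, and 0.04 with that filter. When 1 array was left out, its lowest value was -0.56 (WT replicate 3 left out) and its highest 0.02 (WT replicate 2 left out).

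Of the 20 tested probes, 15 kept their sign in each fit with 1 array left out that measured them, and 17 in each other alternative that measured them. Without WT replicate 2, 4 probes (H2-Eb1, Tap1, Tap2 and Cd74 ILMN_1247832) were not measured, and fits with fewer features lack further probes. For the exceptions the cause was not tested. H2-D1 ILMN_2476267 was -0.21 with a floor of 64 and -0.96 with array weights, and -0.85 to 0.99 with 1 array left out. H2-K1 ILMN_2795520 was -0.26 with a floor of 16, -0.029 with the offset and -0.037 with array weights, and -0.17 to 0.19 with 1 array left out. H2-K1 ILMN_2634603 was 0.55 with array weights and -1.95 to 0.61 with 1 array left out. H2-Aa ranged from -1.02 to 0.24, and B2m ILMN_2739999 from -0.11 to 1.81. The 3 probes of H2-Ab1 stayed below 0 under every alternative that measured them.

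The replicate numbers do not pair the samples by any label. Deviations of same-numbered arrays from their group means correlated at 0.03 to 0.04, and each array correlated best with its own number. Deviations within a group depend on each other, so these are not separate agreements and do not show a pairing. The replicate block changed no adjusted call. Probes with 1 or 2 arrays above the floor give differences of floored values and not bounds. Differences below the floor were not detectable at this signal.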
